A study of Homo sapiens with 66 samples.

Results

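The data described here are 6 of the 66 RNA-seq libraries of the series: AID-NeonGreen-TPR cells after 2 h of auxin (1 mM; replicates old1, old2 and old3) and the same cells without auxin (untreated; replicates old1, old2 and old3). They were chosen by their labels alone, and all genes were examined. The cells are DLD-1, a human colorectal cancer line, in which both alleles of TPR carry an auxin-inducible degron (AID) and the fluorescent protein NeonGreen, and in which the ubiquitin ligase subunit TIR1 is expressed from the RCC1 locus; untreated and treated cells share these alleles. Auxin brings TIR1 to the degron, and the tagged protein is degraded. The comparison asks which RNAs change in the first hours after TPR is lost. A second set of AID-NeonGreen-TPR libraries with plain replicate numbers (3 untreated, 3 after 2 h), old-labelled libraries after 8 h of auxin, and parental DLD-1 libraries without a degron (3 labelled untreated, 3 labelled auxin for 2 h) were used only beside them. The line was grown from edited cells, so that its own features are shared by treated and untreated libraries. The study's methods describe RNA-seq replicates as biologically independent without naming the old-labelled set. Neither they nor the labels say how the old-labelled replicates differ from the plain ones, and if these are not separate cultures, the p-values measure only the spread between these libraries.

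TPR is the coiled-coil protein that builds the filaments of the nuclear basket, on the nuclear face of the nuclear pore. The basket is a docking place for TREX-2, a complex scaffolded by GANP (gene MCM3AP) with PCID2 and ENY2 that links transcription to mRNA export, and mRNA leaves the nucleus through the receptor NXF1. RNAs without introns reach export without help from the splicing machinery, and RNAs made in bursts, such as those of immediate early genes, depend on rapid transcription and turnover. Auxin is an indole, and indoles can activate the aryl hydrocarbon receptor (AHR), a ligand-dependent transcription factor that pairs with ARNT and induces cytochrome P450 genes such as CYP1A1 and the feedback genes AHRR and TIPARP.

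Total counts were between 23084890 and 27916215 in the untreated libraries and between 25133011 and 30825071 after 2 h. A gene was tested when it had over 1 CPM, its count scaled to a fixed library total, in more than 5% of the 60 libraries not given Actinomycin D and at least 1 count in the 6 libraries, which gave 16771 genes. TPR RNA, whose level does not report on the protein, stood at 220, 183 and 133 CPM in untreated old1, old2 and old3 and at 214, 206 and 176 CPM after 2 h, a log2 fold change of 0.27 (adjusted p = 0.534, edgeR's quasi-likelihood test). Of 10 markers of colon epithelium, 8 exceeded 1 CPM, and their summed level was 12255 to 14149 CPM untreated and 13841 to 15111 CPM after 2 h, while CDX1 and LGALS4 stayed under 1 CPM. The 6 fibroblast markers summed to at most 1.54 CPM, the 6 leukocyte markers to at most 2.39 CPM and the 4 endothelial markers, mainly VWF, to at most 12.8 CPM. Mitochondrially encoded genes took 0.147% to 0.360% of the counts in the untreated libraries and 0.187% to 0.615% after 2 h, with the highest share in 2 h old3.

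The library labelled 2 h old2 stood apart. Genes that averaged 50 counts or more and differed by at least 0.8 on the log2 CPM scale between the libraries labelled 8 h and 2 h, in the same direction in old1 and old3, numbered 404. Of these, 68 were higher at 8 h and 336 lower. All 404 went the opposite way in old2. For the 68 genes the median difference of 8 h minus 2 h was 0.97 in old1, 1.01 in old3 and -1.001 in old2, and for the 336 genes it was -1.08, -1.12 and 1.10. Across 12189 genes (genes are no independent replicates) the 8 h minus 2 h differences of old1 and old3 correlated at r = 0.735, those of old1 and old2 at r = -0.822 and those of old3 and old2 at r = -0.860. The library labelled 2 h old2 had its highest correlation of log2 CPM with 8 h old3 (r = 0.995), and the library labelled 8 h old2 with 2 h old3 (r = 0.994). The old2 libraries of 2 h and 8 h thus went against the time in their labels. Whether the labels were crossed was not tested, the libraries were kept as labelled, and main results are given with and without 2 h old2.

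**Figure D1:**
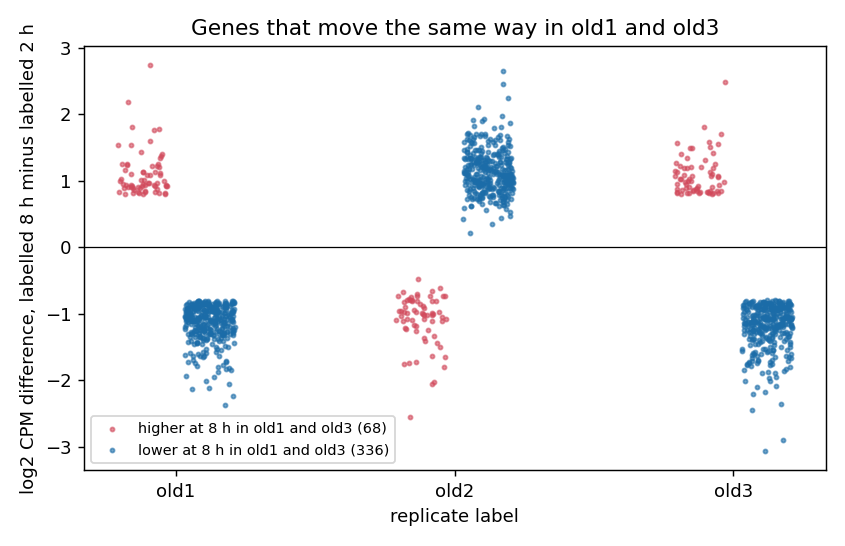
Difference in log2 CPM between the library labelled 8 h and the library labelled 2 h (vertical axis) for each replicate label (horizontal axis); each point is 1 of the 404 genes chosen in old1 and old3, 68 higher at 8 h in red and 336 lower in blue. In old2 every red point lies below 0 and every blue point above it.

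After 2 h of auxin, 86 genes were called (0.513% of the genes tested), 27 higher and 59 lower, meaning that the adjusted p was below 0.05 and the level rose 1.3-fold or more or fell to 0.7 of the untreated level or less. Called higher were 0.161% and called lower 0.352% of all genes tested. Among calls that averaged 50 counts or more, the largest rises were in FOS, ADGRF1, EGR1 and IER3, and the 10 largest falls included KLHDC7A, BORCS6, CLDN23 and FZD7, which have a single exon. At an unadjusted p under 0.05 there were 2151 genes, 751 higher and 1400 lower, and DESeq2 called 419. The values of the treated and untreated libraries did not overlap in any of the 86 called genes, and in 20.7% of all genes tested. The calls were made on these same 6 libraries, so the absence of overlap is largely fixed by that choice.

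The calls leaned on single libraries. Without 2 h old2 there were 123 calls (0.733% of genes tested; 41 higher, or 0.244%, and 82 lower, or 0.489%), of which 76 were also called with all 6 libraries: 88.4% of the 86 and 61.8% of the 123. Without untreated old2, edgeR called 0 genes, with 1221 at an unadjusted p under 0.05 and 154 called by DESeq2. Without untreated old1 or old3 there were 26 and 14 calls, and without 2 h old1 or old3 there were 56 and 58. In every fit that left out a library other than untreated old2, 14 genes were called: FOS, ADGRF1, IER3, GDF15, HBEGF, CCN1, DUSP6, AREG and SLC2A1 among the genes that rose, and BEND3P1, HILPDA, FZD7, JRK and ZNF12 among those that fell. With neither old2 library in the fit, PIM1 and ADGRF1 were the 2 genes called, both higher.

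**Figure D2:**
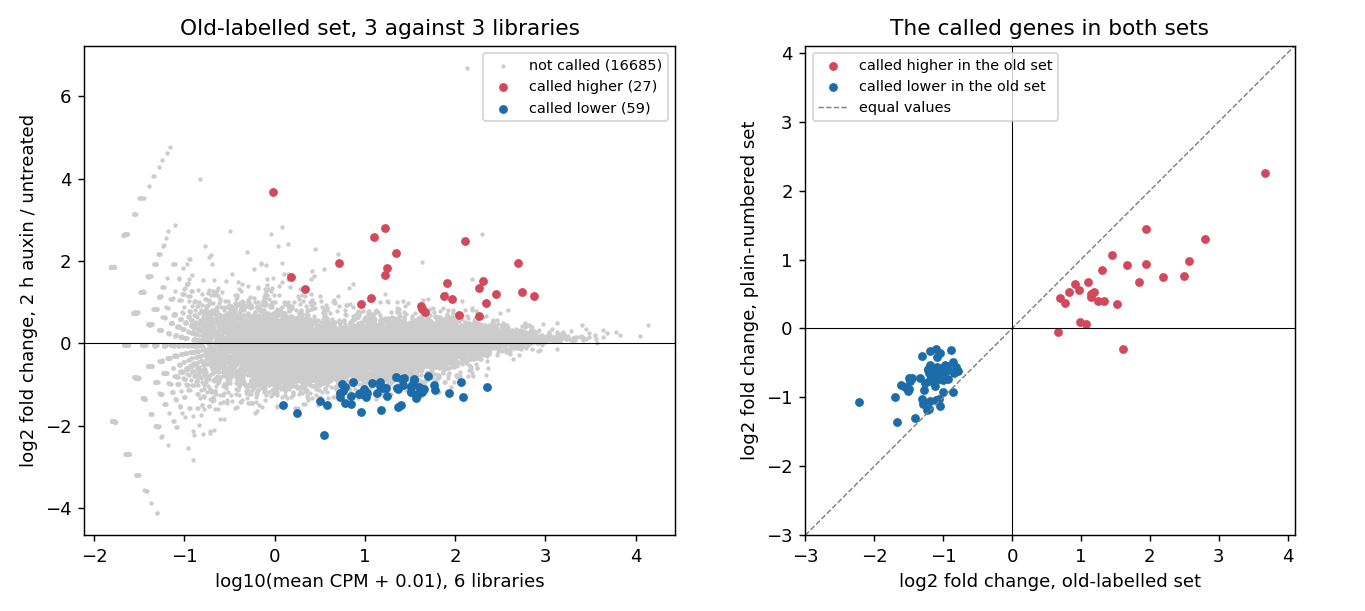
Left, log2 fold change after 2 h of auxin (vertical axis) against log10 of the mean CPM over the 6 old-labelled libraries (horizontal axis) for 16771 genes, with 27 called higher in red, 59 called lower in blue and the others in grey. Right, log2 fold changes of the 86 called genes in the old-labelled set (horizontal axis) and in the plain-numbered set (vertical axis); 84 points lie nearer to 0 on the vertical axis than on the horizontal one.

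CYP1A1 had the largest log2 fold change of the 16771 genes tested. The library labelled 2 h old2 was low in it and in some other AHR-responsive genes, but not in all. In NQO1 and ALDH3A1, also in the AHR list, it was the highest treated library. After 2 h NQO1 stood at 268, 367 and 213 CPM in old1, old2 and old3, and ALDH3A1 at 96.5, 142 and 110 CPM. CYP1A1, the cytochrome P450 that is the classical AHR target, stood at 3.77, 2.95 and 1.68 CPM in untreated old1, old2 and old3 and at 421, 44.4 and 349 CPM after 2 h. The 2 h old2 library was above every untreated library and far below both others. The log2 fold change was 6.68 (SE 0.76, adjusted p = 0.00959), and without 2 h old2 it was 7.18 (adjusted p = 1.98e-05). TIPARP, an ADP-ribosyltransferase that restrains AHR, stood at 58.8, 59.5 and 54.9 CPM and then at 424, 139 and 463 CPM, a log2 fold change of 2.65 (SE 0.34, adjusted p = 0.0124). Both passed the test here, but both were also called in the parental DLD-1 libraries and are therefore not among the 86.

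CYP1B1, AHRR, PPP1R15A, MEGF6, CLK3 and CYP1B1-AS1, each from the AHR list or called in DLD-1, did not pass edgeR's test with all 6 libraries and passed without 2 h old2, the lowest treated library in each. By DESeq2 with all 6 libraries CYP1B1, AHRR, PPP1R15A and CYP1B1-AS1 passed (adjusted p = 4.1e-06, 0.000762, 1.67e-05 and 3.15e-05), as they did in edgeR with a replicate block (0.0146, 0.0425, 0.0194 and 0.0169). CYP1B1, another AHR-induced cytochrome P450, stood at 13.0, 18.5 and 23.7 CPM untreated and at 68.3, 29.7 and 108 CPM after 2 h, with an adjusted p of 0.0617 in all 6 libraries and 0.00958 without 2 h old2. AHRR, the AHR repressor, stood at 12.2, 13.0 and 11.0 CPM and then at 26.8, 14.6 and 28.03 CPM (adjusted p = 0.0815 and 0.00558). PPP1R15A, a stress-induced phosphatase subunit, stood at 87.8, 78.2 and 77.4 CPM and then at 310, 104 and 269 CPM (adjusted p = 0.0604 and 0.000594). MEGF6 moved from 11.3, 14.5 and 11.7 CPM to 30.5, 8.73 and 31.7 CPM, so that 2 h old2 lay below the untreated libraries (adjusted p = 0.316 and 0.00548). CYP1B1-AS1, which overlaps CYP1B1, had adjusted p-values of 0.0776 and 0.00139. Of the 10 genes in the AHR list, 9 had a log2 fold change above 0, with a median of 0.92 against 0.01 for all genes tested; AHR and ARNT themselves were at 0.02 and -0.02.

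**Figure D3:**
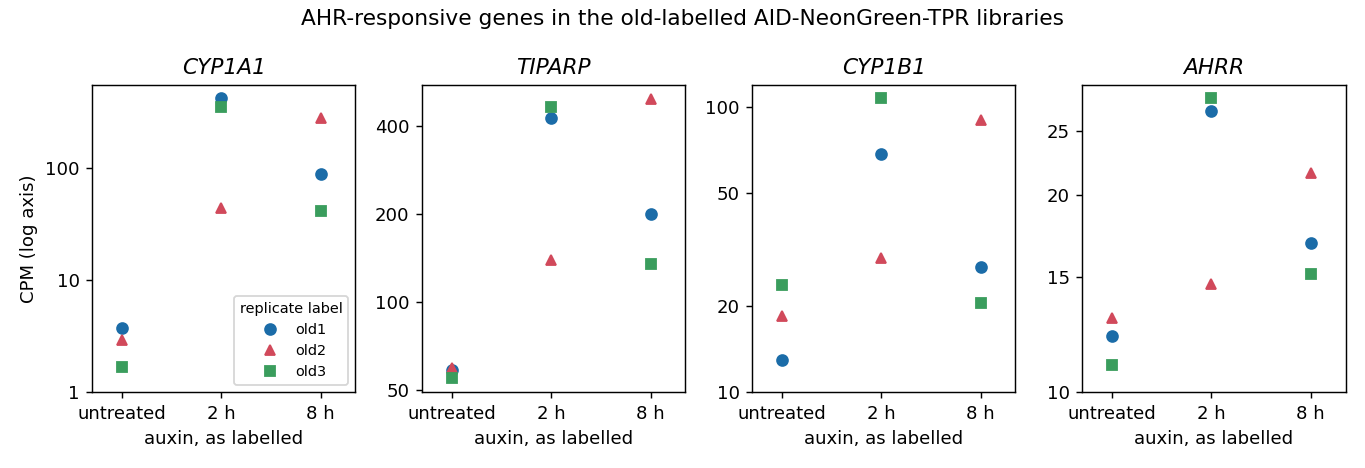
CPM on log axes (vertical) of CYP1A1, TIPARP, CYP1B1 and AHRR in the old-labelled libraries by labelled treatment (horizontal); each point is 1 library, and its colour and shape give the replicate label. At 2 h the old2 point is the lowest of the 3 in each gene, and at 8 h it is the highest.

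The AHR-ARNT dimer binds sites with the core GCGTG. The windows of CYP1A1 and TIPARP are printed because these genes passed the test and 2 h old2 lay below both other treated libraries in each. The sequences are those of RefSeq on GRCh38.p14 and run from 250 bases before the start of the gene to 50 bases after it, 5′ to 3′ in the direction of the gene: chr15:74725479-74725778 on the minus strand for CYP1A1 and chr3:156674340-156674639 on the plus strand for TIPARP, the first of its 3 listed windows. Capitals mark GCGTG or, for a match on the other strand, CACGC.
CYP1A1: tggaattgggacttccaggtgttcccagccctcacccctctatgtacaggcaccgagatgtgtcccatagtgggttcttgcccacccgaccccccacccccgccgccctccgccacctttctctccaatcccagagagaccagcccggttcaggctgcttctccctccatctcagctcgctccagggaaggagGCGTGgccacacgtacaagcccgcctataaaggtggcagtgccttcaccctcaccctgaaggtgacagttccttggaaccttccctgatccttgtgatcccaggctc
TIPARP: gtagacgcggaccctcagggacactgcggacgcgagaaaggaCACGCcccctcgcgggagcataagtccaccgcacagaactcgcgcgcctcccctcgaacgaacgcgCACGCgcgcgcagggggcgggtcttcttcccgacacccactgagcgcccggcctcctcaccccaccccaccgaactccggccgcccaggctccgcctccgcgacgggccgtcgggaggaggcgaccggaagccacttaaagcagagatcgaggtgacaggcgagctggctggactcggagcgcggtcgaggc
The CYP1A1 window holds 1 match and the printed TIPARP window 2, while windows 2 and 3 of TIPARP, not printed, hold 0. Of 8 genes of the AHR list with a window in the table, 6 held the core in at least 1 window (75.0%), but so did 57.3% of the 11285 tested genes with one, and the short motif is common.

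Immediate early genes respond to growth factor signals without new protein synthesis. Of the 14 in the list, all had a log2 fold change above 0 and 4 were called higher (28.6%, against 0.161% of all genes tested): FOS, EGR1, EGR2 and IER3. IER5, also an immediate early gene, was placed in the list of MAP kinase feedback genes and was called lower (log2 fold change -1.19). That all 14 lay above 0 thus depends on the choice of list. The list median was 1.01, against 0.01 for all genes, and 1.19 without 2 h old2. By library the median difference from the untreated mean was 0.71, 0.86 and 1.05 in 2 h old1, old2 and old3, so here 2 h old2 lay between the others.

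FOS, a subunit of the transcription factor AP-1, stood at 4.79, 4.64 and 4.05 CPM untreated and at 18.8, 30.8 and 37.1 CPM after 2 h (log2 fold change 2.80, SE 0.26, adjusted p = 0.00371). All 3 treated libraries were well above the untreated ones, and 2 h old2 was in the middle. EGR1, a zinc finger transcription factor, stood at 34.5, 36.2 and 53.3 CPM and then at 130, 137 and 391 CPM (2.49, SE 0.39, adjusted p = 0.0265). The 2 h old3 library was far above the others in EGR1. IER3, a gene that is induced by stress and modulates survival, rose from 8.35, 9.01 and 7.77 CPM to 34.5, 21.4 and 51.8 CPM (2.19, SE 0.26, adjusted p = 0.0101), and EGR2 from 0.771, 0.823 and 0.752 CPM to 1.67, 2.303 and 2.70 CPM (1.62, adjusted p = 0.0407). EGR2 did not pass without 2 h old2 (adjusted p = 0.0597). Of the members that did not pass, JUNB and MYC were highest in 2 h old2. JUNB stood at 87.6, 314 and 177 CPM after 2 h, against 98.1 to 139 CPM untreated. MYC stood at 223, 414 and 264 CPM, against 203 to 239 CPM untreated. JUN was at 36.3, 16.4 and 19.7 CPM after 2 h and overlapped its untreated range of 10.3 to 23.6 CPM.

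Serum response factor, which drives many immediate early genes, binds the CArG box. The window of EGR1 (chr5:138465229-138465528, plus strand, RefSeq on GRCh38.p14, 250 bases before to 50 after the start, 5′ to 3′) is printed because EGR1 is among the largest rises and its window holds 2 CArG boxes, marked by capitals.
EGR1: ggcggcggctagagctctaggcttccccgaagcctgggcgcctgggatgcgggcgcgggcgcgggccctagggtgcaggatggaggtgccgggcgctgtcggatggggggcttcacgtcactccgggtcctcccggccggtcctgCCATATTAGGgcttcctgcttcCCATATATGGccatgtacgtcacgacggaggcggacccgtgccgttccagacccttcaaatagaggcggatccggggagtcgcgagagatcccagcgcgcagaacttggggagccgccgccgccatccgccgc
A CArG box was found, on either strand, in 2 of the 10 genes of the immediate early list that had a window (EGR1 and EGR2, the latter in 1 of its 3 windows), in 3 of the 23 called-higher genes that had one (13.0%), in 0 of the 41 called-lower genes that had one, and in 1.52% of tested genes with a window. The FOS window held none, which says only that the motif is not in these 300 bases.

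AREG, HBEGF and EREG, ligands of the epidermal growth factor receptor (EGFR), rose, as did the feedback genes ERRFI1 and DUSP6. Of 7 ligands of the receptor, a list made after the values were seen, 5 were tested and 3 were called higher, against 0.161% of all genes tested. AREG stood at 114, 110 and 104 CPM untreated and at 228, 270 and 272 CPM after 2 h (log2 fold change 1.34, SE 0.13, adjusted p = 0.00377). HBEGF stood at 10.3, 7.93 and 6.59 CPM and then at 22.3, 31.5 and 28.0 CPM (1.84, SE 0.22, adjusted p = 0.0101). EREG stood at 501, 515 and 452 CPM and then at 1086, 782 and 1180.1 CPM (1.15, SE 0.14, adjusted p = 0.0106). The 2 h old2 library was lowest for EREG and highest for HBEGF. TGFA had a log2 fold change of 0.66 (adjusted p = 0.0701), and BTC one of -0.03. ERRFI1, a feedback inhibitor of EGFR, rose from 195, 175 and 170 CPM to 436, 250 and 467 CPM (1.19, adjusted p = 0.0284). DUSP6, the phosphatase that turns off the kinase ERK, rose from 104, 120 and 112 CPM to 252, 244 and 402 CPM (1.52, SE 0.18, adjusted p = 0.0101). In the list of 15 feedback genes of the MAP kinase pathway, these 2 were called higher and IER5, which has a single exon, was called lower, with a list median of 0.29; over all genes tested 0.161% were called higher and 0.352% lower. EPHA2, a receptor tyrosine kinase, rose from 162, 154 and 151 CPM to 224, 349 and 282 CPM (0.99, adjusted p = 0.0486).

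GDF15, a secreted stress cytokine, stood at 241, 209 and 211 CPM untreated and at 642, 766 and 950 CPM after 2 h (log2 fold change 1.94, SE 0.16, adjusted p = 0.00184). It was the 1 gene called of the 12 in the integrated stress response list (8.33%, against 0.161% of all genes called higher), whose median was 0.14. Without 2 h old2 there were 2, GDF15 and DDIT4, with PPP1R15A left out as called in DLD-1. ADGRF1, an adhesion G protein-coupled receptor, rose from 4.66, 3.42 and 3.40 CPM to 24.4, 17.3 and 22.1 CPM (2.57, SE 0.20, adjusted p = 0.00184). Its values in the 3 treated libraries were close to each other and 2 h old2 was the lowest. CCN1, a matrix-associated signalling protein, rose from 7.502, 7.45 and 10.2 CPM to 27.97, 18.1 and 29.3 CPM (1.67, adjusted p = 0.0114). SLC2A1, the glucose transporter GLUT1, rose from 353, 312 and 369 CPM to 643, 819 and 806 CPM (1.24, SE 0.15, adjusted p = 0.0101).

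In PRDM1 and PIM1 the library labelled 2 h old2 lay nearer to the untreated libraries than to the other treated ones. PRDM1, a transcriptional repressor, stood at 2.23, 2.04 and 2.44 CPM and then at 10.4, 4.38 and 9.64 CPM (log2 fold change 1.94, SE 0.30, adjusted p = 0.0233; 2.22 without 2 h old2, adjusted p = 0.00184). PIM1, a serine/threonine kinase, stood at 47.4, 44.01 and 46.0 CPM and then at 149, 64.9 and 141 CPM (1.45, SE 0.24, adjusted p = 0.0353; 1.73 without 2 h old2, adjusted p = 0.000594). KLF4, an epithelial differentiation factor, was even across libraries, from 33.1, 30.3 and 33.7 CPM to 52.1, 53.6 and 55.0 CPM (0.83, adjusted p = 0.0233). STMND1 had the largest fold among the 86, from 0.243, 0.0866 and 0.107 CPM to 1.63, 2.595 and 1.02 CPM (3.67, SE 0.53, adjusted p = 0.0179). Over the 27 genes called higher, 2 h old2 lay below both other treated libraries in 13, between them in 8 and above both in 6.

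**Figure D4:**
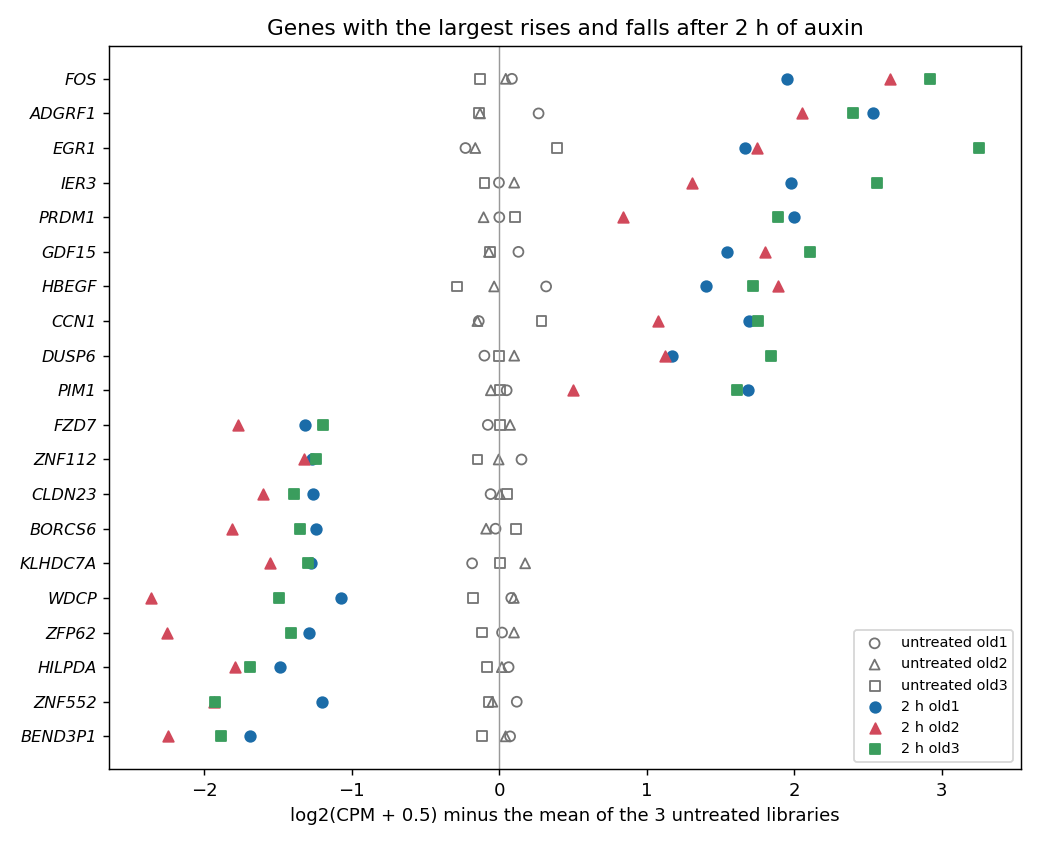
Difference of log2(CPM + 0.5) from the mean of the 3 untreated libraries (horizontal axis) for the 10 largest rises and the 10 largest falls among called genes (vertical axis); open grey symbols are untreated libraries, filled symbols are libraries after 2 h, and the shape gives the replicate label. The red triangles of 2 h old2 lie nearer to 0 than both others in IER3, PRDM1, CCN1 and PIM1 and farther from 0 in ZFP62, WDCP, BORCS6 and FZD7.

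The genes that fell had few exons and short genomic spans. Of the 59 genes called lower, 56 were protein-coding, and 21 of these (37.5%) had 1 exon in every annotated transcript, against 205 (1.59%) of the 12896 protein-coding genes tested. With at most 2 exons there were 32 (57.1%), against 4.45%. The median of the largest exon number was 2 for the genes called lower, 6 for those called higher and 10 for all protein-coding genes tested. The median span was 5937 bp for the genes called lower, 20133 bp for those called higher and 33291 bp for all. The median length of the exons together did not separate falls from rises. It was 3859 bp for the genes called lower, 3859 bp for those called higher and 5315 bp for all.

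A relation to exon number ran through all protein-coding genes, called or not. The median log2 fold change was -0.75 in the 167 genes with 1 exon (replication-dependent histone genes left out), -0.47 in the 360 with 2, -0.11 in the 2373 with 3 to 5, 0.05 in the 4017 with 6 to 10 and 0.07 in the 5927 with more. Called lower were 12.6% of the genes with 1 exon, 3.06% of those with 2, 0.759%, 0.124% and 0.0169% of the next classes. The 167 include mitochondrially encoded genes, whose log2 fold changes all lay above 0, between 0.34 (MT-ND2) and 0.67 (MT-ND4L). Of the 167, 141 had a log2 fold change below 0, and no gene was called higher. Called higher were 0.556%, 0.464%, 0.199% and 0.101% of the other classes. The order of the first 3 medians was the same in each treated library, at -0.64, -1.04 and -0.47 for 1 exon in 2 h old1, old2 and old3, -0.42, -0.78 and -0.29 for 2 exons, and -0.14, -0.29 and -0.12 for 3 to 5. The falls were deepest in 2 h old2, without which the medians were -0.55, -0.35 and -0.07. In the plain set they were -0.37, -0.25 and -0.05, and in DLD-1 as labelled they were 0.0032, -0.0035 and -0.0015. Plain and DLD-1 libraries have no count on mitochondrial genes, so their medians for 1 exon leave those genes out. The median untreated level, not scaled for length, was 13.5 CPM for genes with 1 exon and 41.0 CPM for those with over 10 exons; the part of abundance, length and library in the medians was not tested.

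**Figure D5:**
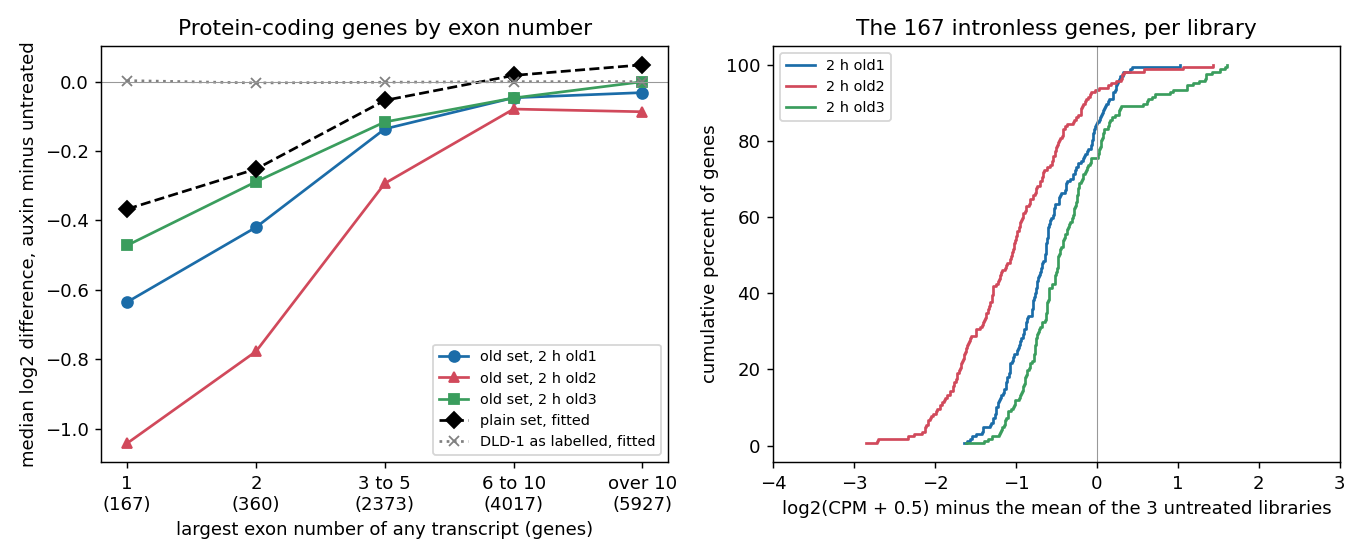
Left, median log2 difference between auxin and untreated libraries (vertical axis) for protein-coding genes by the largest exon number of any transcript (horizontal axis, gene numbers in parentheses), per 2 h library of the old set as differences of log2(CPM + 0.5) and as fitted fold changes for the plain set and DLD-1 as labelled. The class with 1 exon includes mitochondrially encoded genes in the old set only. Right, cumulative percent of the 167 intronless genes (vertical axis) against the difference from the untreated mean (horizontal axis) in each 2 h library; the curve of old2 lies to the left of the others.

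The intronless genes that fell serve many functions. FZD7, a Wnt receptor, stood at 51.0, 56.7 and 54.0 CPM untreated and at 21.3, 15.4 and 23.2 CPM after 2 h (log2 fold change -1.33, SE 0.15, adjusted p = 0.00959). CLDN23, a claudin of tight junctions, fell from 8.52, 8.92 and 9.24 CPM to 3.42, 2.595 and 3.08 CPM (-1.45, adjusted p = 0.0109). BORCS6, a subunit of the BORC complex that positions lysosomes, fell from 10.3, 9.83 and 11.4 CPM to 4.14, 2.63 and 3.82 CPM (-1.48, adjusted p = 0.0145). In these 3 genes 2 h old2 was the lowest library, and every treated library lay below every untreated one.

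Others encode factors of organelles and metabolism. HPS6, which acts in the making of lysosome-related organelles, fell from 64.4, 59.6 and 64.7 CPM to 30.7, 20.2 and 31.0 CPM (-1.11). MOCS3, an enzyme of molybdenum cofactor synthesis, fell from 17.7, 22.1 and 18.8 CPM to 8.91, 5.90 and 8.86 CPM (-1.21), and SDHAF1, an assembly factor of succinate dehydrogenase, from 14.3, 13.8 and 12.4 CPM to 6.13, 4.64 and 5.85 CPM (-1.18). IER5, an immediate early gene without introns, went down while FOS and EGR1 went up, from 42.5, 43.1 and 52.2 CPM to 16.9, 18.9 and 20.4 CPM (-1.19, SE 0.15, adjusted p = 0.0124). In FRAT2, which binds the kinase GSK3 in Wnt signalling, 2 h old2 was the highest treated library, at 4.81, 7.30 and 4.52 CPM against 14.2 to 16.01 CPM untreated. The same library was the highest treated one in FOXC1 (3.42, 4.12 and 3.61 CPM) and MARS2 (17.3, 18.5 and 15.9 CPM). The other intronless genes called lower were KLHDC7A, FOXC1, EXOC8, PPP1R3D, RIOX1, IRF2BP1, ADO, BLOC1S4, FUT4, PLPP6, ZCCHC3, MARS2 and NCBP2AS2, with log2 fold changes between -1.49 (KLHDC7A) and -0.82 (EXOC8).

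ASCL2 and 3 HOX genes, which encode transcription factors of the intestine and of development, fell. ASCL2, a Wnt-driven factor of intestinal stem cells with 2 exons, stood at 165, 162 and 204 CPM untreated and at 70.0, 41.2 and 90.0 CPM after 2 h (log2 fold change -1.31, SE 0.23, adjusted p = 0.0425). It was the only called gene among 10 Wnt targets, whose median was 0.01. HOXA13, the homeobox factor of the hindgut, stood at 103, 138 and 125 CPM and then at 53.5, 36.5 and 59.6 CPM (-1.19, SE 0.17, adjusted p = 0.0188). Among the HOX genes, a list made after the values were seen, 26 of 39 were tested, 3 were called lower (HOXA13, HOXA11 and HOXB6; 11.5%, against 0.352% of all genes) and 23 had a log2 fold change below 0, with a median of -0.35. HOXA11 was even, at 18.4, 18.2 and 18.2 CPM after 2 h against 33.6 to 36.4 CPM untreated. FJX1, with at most 2 exons, stood at 22.2, 17.4 and 18.8 CPM and then at 11.3, 14.5 and 10.6 CPM and did not pass (-0.57, adjusted p = 0.291).

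Zinc finger genes of the ZNF family, most of which encode repressors of transcription, had 5 called lower of 383 tested (1.31%, against 0.352% of all genes) and none called higher. Without 2 h old2, 9 were called lower (0.489% of all genes), and in the plain set 10 were (0.405%). The median was -0.09, with 226 below 0. ZNF12 fell from 57.2, 64.5 and 60.4 CPM to 26.7, 23.4 and 28.9 CPM (-1.10, SE 0.13, adjusted p = 0.00959). ZNF552 had the deepest fall of them, from 15.2, 13.5 and 13.2 CPM to 5.77, 3.28 and 3.29 CPM (-1.67, SE 0.23, adjusted p = 0.0154), and ZNF112 fell from 5.31, 4.72 and 4.23 CPM to 1.67, 1.59 and 1.72 CPM (-1.41). ZNF589 and ZNF785 were both at -0.94. ZNF785 did not pass without 2 h old2 (adjusted p = 0.0488 with all 6 libraries and 0.0534 without it). Replication-dependent histone genes are also intronless but end in a stem-loop in place of a poly(A) tail. They did not follow the other intronless genes in their median, which was 0.01. Of the 52 tested, 0 were called by edgeR, against 0.513% of all genes tested. H2AC4 stood at 199, 190 and 172 CPM untreated and at 182, 180 and 160 CPM after 2 h.

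Other falls were as large. BEND3P1, a transcribed pseudogene whose reads may be shared with its parent gene, had the deepest fall, from 6.20, 6.06 and 5.37 CPM to 1.47, 0.843 and 1.23 CPM (log2 fold change -2.22, SE 0.23, adjusted p = 0.0066). HILPDA, a hypoxia-induced protein of lipid droplets, fell from 24.2, 23.4 and 21.9 CPM to 7.96, 6.33 and 6.83 CPM (-1.62, SE 0.15, adjusted p = 0.00377). CLDN4, a claudin of epithelia, fell from 314, 309 and 318 CPM to 126, 157 and 136 CPM (-1.05, SE 0.14, adjusted p = 0.0133), and 2 h old2 was the highest of the treated libraries. WDCP and ZFP62 were lowest in 2 h old2. WDCP stood at 17.9, 7.01 and 13.2 CPM against 33.5 to 40.8 CPM untreated, and ZFP62 at 14.2, 7.04 and 13.0 CPM against 32.6 to 38.1 CPM. Without that library their log2 fold changes were -1.23 and -1.32 in place of -1.50 and -1.55. Over the 59 genes called lower, 2 h old2 lay below both other treated libraries in 48, between them in 6 and above both in 5.

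Over all genes tested 0.513% were called, so 0 calls in a short list say little about its members. Of 11 genes of the nuclear basket, TREX-2 and NXF1, 0 were called by edgeR, and the median was 0.12. MCM3AP stood at 132, 129 and 150 CPM untreated and at 136, 139 and 154 CPM after 2 h (0.16, adjusted p = 0.578), PCID2 had a log2 fold change of 0.08 and ENY2 one of 0.03. No gene was called among 12 heat shock proteins (median 0.21), 10 tested NF-kappaB targets (0.25), 13 CLK kinases and SR splicing factors (0.14), 7 tested nuclear long noncoding RNAs (-0.21), 13 genes of S phase (0.14) and 14 of mitosis (0.17). These medians stand against 0.01 for all genes tested.

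Leaving out 2 h old2 brought in 47 genes, AHRR among them. CYP1B1, PPP1R15A, MEGF6, CLK3 and CYP1B1-AS1 were called in DLD-1 and are not counted. Of the 47, the largest rises among those that averaged 50 counts or more were in HDAC2-AS2, ENSG00000274021, LEKR1, OVOL1 and DDIT4. DDIT4, a stress-induced inhibitor of mTOR, stood at 14.2, 17.5 and 22.6 CPM untreated and at 37.6, 19.4 and 47.4 CPM after 2 h (adjusted p = 0.179 with all 6 libraries and 0.0325 without 2 h old2). OVOL1, an epithelial transcription factor, stood at 39.9, 47.7 and 52.6 CPM and then at 85.4, 69.8 and 136 CPM (0.0579 and 0.0285). In both, the library labelled 8 h old2 was above the other 8 h libraries, at 71.9 against 14.7 and 14.0 CPM in DDIT4 and 148 against 76.6 and 67.9 CPM in OVOL1. Among the falls were the intronless genes IER5L and KCTD11 and the long noncoding RNA PRADX. IER5L stood at 20.2, 19.02 and 22.7 CPM and then at 6.96, 17.8 and 9.22 CPM (0.381 and 0.0219). KCTD11 went the other way, with 2 h old2 lowest at 8.08, 4.09 and 9.36 CPM against 18.3 to 22.0 CPM untreated (0.0531 and 0.0226).

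The plain-numbered AID-NeonGreen-TPR libraries are separate samples of the same line and treatment. Of the 86 genes, 84 had a log2 fold change of the same sign there, 25 of 27 among the genes called higher and 59 of 59 among those called lower; over all genes of the plain comparison 52.4% were above 0. The exceptions were AMOTL2 (0.67 and -0.06) and EGR2 (1.62 and -0.30). The plain set had 85 calls among 17765 tested (0.478%), 0.0732% higher and 0.405% lower, of which 36 were shared: 41.9% of the old calls and 42.4% of the plain ones. The changes were smaller in the plain set for 84 of the 86. The median log2 fold change of the genes called higher was 1.31 in the old and 0.56 in the plain set, and that of the genes called lower -1.16 and -0.72. Since the genes were called in the old set, a smaller value elsewhere is partly fixed by that choice.

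No gene differed between the sets in the test of the difference itself. The interaction of auxin and set gave 0 of 16730 genes at an adjusted p under 0.05 by edgeR's quasi-likelihood test, with 562 at an unadjusted p under 0.05 and 5 by DESeq2. Without 2 h old2 there were 6: CYP1A1, TIPARP, AHRR, CYP1B1-AS1, PPP1R15A and LIF, all with the larger change in the old set. A difference that did not pass can still be large: for EGR1 the log2 fold change was 2.49 in the old and 0.76 in the plain set, a difference of 1.72 (SE 0.55). The immediate early list had a median of 1.01 in the old and -0.01 in the plain set, where 1 of its genes was called. Untreated means in the old and plain sets were 4.49 and 13.6 CPM for FOS and 41.3 and 139 CPM for EGR1. They were 0.782 and 2.89 CPM for EGR2 and 8.38 and 278 CPM for IER3. The bearing of these starting levels on the changes was not tested. CYP1A1 also began from other levels, at 107, 28.9 and 69.7 CPM in the plain untreated libraries and 316, 205 and 218 CPM after auxin, a log2 fold change of 1.88 against 6.68 in the old set.

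Parental DLD-1 cells without a degron, treated with auxin for 2 h, are the control for effects of auxin alone, but their AHR genes went the other way. CYP1A1 stood at 201, 179 and 171 CPM in the libraries labelled untreated and at 14.5, 14.0 and 9.55 CPM in those labelled auxin, a log2 fold change of -3.84 as labelled. Values of DLD-1 are given as labelled, and a difference from DLD-1 in an auxin-responsive gene cannot be read apart from this. The DLD-1 comparison called 10 genes (0.0563%), all lower. Of the 59 genes called lower after TPR loss, 26 were below 0 and 33 above 0 in DLD-1, between -0.37 and 0.21 with a median of 0.01. Of the 27 called higher, 20 were below 0 in DLD-1, with a median of -0.21. In the interaction of auxin and line, 155 of 16729 genes (0.927%) passed, 61 with the higher and 94 with the lower log2 fold change in the old AID-NeonGreen-TPR set. Among them were 74 of the 86 called genes, 21 of the 27 higher and 53 of the 59 lower. The 86 were called in these same old libraries with DLD-1 calls removed, so these numbers are partly fixed by that choice. FOS and EGR1 did not pass, with log2 fold changes of 0.53 and 0.29 in DLD-1 (adjusted p = 0.0923 and 0.256 for the difference).

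The libraries labelled 8 h share the untreated libraries with those of 2 h, so their values are given side by side only. The 8 h comparison called 709 genes (4.23% of its 16769; 1.52% higher and 2.71% lower). The 27 genes called higher at 2 h had a median log2 fold change of 1.398 in the 8 h comparison, and the 59 called lower one of -1.13. FOS stood at 25.6, 35.5 and 27.4 CPM in 8 h old1, old2 and old3, GDF15 at 854, 1018 and 836 CPM, and FZD7 at 16.8, 20.2 and 18.6 CPM. CYP1A1 stood at 89.1, 282 and 41.2 CPM, with old2 above the others, the reverse of its place at 2 h.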

How the data were processed

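Total RNA was depleted of ribosomal RNA, made into libraries with a strand-marking kit and sequenced as paired ends. Reads were aligned by the authors with STAR on GRCh38, and what they deposited is the raw count per Ensembl gene from featureCounts, not normalized. The submitters' processing notes name CASAVA 1.8.2, STAR 2.6.1c and featureCounts 1.5.2, while the paper's methods give other versions of the last pair. The strand setting is not given in the sources used here, so antisense pairs such as CYP1B1 and CYP1B1-AS1 are uncertain.

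Of 58051 gene identifiers, 56948 matched GENCODE release 44, the source of symbols and exon numbers. Plain and DLD-1 libraries have no count on 37 mitochondrial genes, unlike the old ones, so each set was compared with its own untreated libraries. Of 17812 genes past the CPM filter, 1041 had no count in the 6 libraries. Counts were scaled by TMM (factor 0.909 for 2 h old2, 0.992 to 1.05 for the others) and tested with edgeR 4.0.16 (quasi-likelihood, 3 against 3 libraries, Benjamini-Hochberg over all genes tested; R 4.3.3), with interaction terms for differences between sets or lines. Adjusted p-values come from this test unless another tool is named. SE is a standard error worked back from this test, the absolute log2 fold change divided by the square root of the F statistic. Genes called in DLD-1 were then removed. The biological coefficient of variation was 0.176, and replicates differed by more than counting noise (chi-square per degree of freedom 17.0 to 61.7). The script was tested on simulated data.

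The members and lists were chosen with earlier results of these data known, and the EGFR ligand and HOX lists after the values were seen. Named genes were the 10 largest rises and falls among calls that averaged 50 counts or more without overlap between groups, RNAs the study names, TPR and TREX-2 genes, the AHR list and genes called in DLD-1, called list members, and the 5 largest changes each way called only without 2 h old2. Others were named after their values were seen. Alternatives were RLE factors, library totals, other filters, DESeq2 1.42.0, a fit of 9 old libraries, a replicate block, other fold rules and each library left out. The files of 6 libraries with Actinomycin D were not used.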

Additional observations from a re-analysis of the deposited data

Results flagged for a closer look

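The results below were set apart because the auxin effect in the old-labelled AID-NeonGreen-TPR libraries differed from that in parental DLD-1 libraries by the interaction term (edgeR's quasi-likelihood test, adjusted p under 0.05). There were 155 such genes of 16729. DLD-1 values are as labelled, and CYP1A1 fell there by label, so differences in auxin-responsive genes cannot be told apart from the labelling of DLD-1. The largest rises and falls were chosen by their change in the old libraries, so their difference from DLD-1 is partly fixed by that choice. Why the effects differ was not tested.

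Among AHR-responsive genes and genes called in DLD-1, the log2 fold change in the old set minus that in DLD-1 was 10.53 for CYP1A1, 4.603 for CYP1A2, 4.42 for TIPARP, 3.15 for CYP1B1-AS1, 3.12 for CYP1B1, 2.43 for MEGF6, 2.15 for PPP1R15A, 1.63 for OTUB2 and 1.22 for AHRR. In CYP1A1 the means were 271 CPM after 2 h against 2.80 CPM untreated in the old set and 12.7 CPM labelled auxin against 184 CPM labelled untreated in DLD-1.

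Among the largest rises of the old set the difference was 3.19 for PRDM1, 3.08 for ADGRF1, 2.64 for IER3, 2.15 for GDF15, 2.05 for HBEGF, 1.88 for CCN1, 1.74 for DUSP6 and 1.44 for PIM1. PRDM1 stood at a log2 fold change of -1.25 in DLD-1 (adjusted p = 0.655), so that part of its difference lies in DLD-1.

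Among the largest falls it was -2.42 for BEND3P1, -1.76 for ZNF552, -1.70 for KLHDC7A, -1.65 for HILPDA, -1.53 for ZFP62, -1.45 for BORCS6, -1.43 for WDCP, -1.41 for CLDN23, -1.35 for ZNF112 and -1.05 for FZD7. In these 10 genes the DLD-1 log2 fold change lay between -0.28 (FZD7) and 0.21 (KLHDC7A).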

How the results depend on the processing

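The 86 genes called became 829 with no filter on low counts, 419 with DESeq2 and 2 without both old2 libraries. Leaving out single libraries gave 0 (without untreated old2) to 123 (without 2 h old2) by edgeR and 154 to 665 by DESeq2, an alternative chosen after seeing the data. By DESeq2 the counts were 444 without 2 h old1, 343 without 2 h old2, 230 without untreated old1 and 219 without untreated old3. Apart from a replicate block, the other settings gave 68 to 88 calls. Library totals alone moved the median of all genes from 0.01 to -0.09, a shift that applies to every gene. The 51 named genes that passed kept their direction under every setting run, and 234 of 714 comparisons fell short of the threshold. Fits with 5 libraries have 2 in one group and less power, and the cause of the other changes was not tested. Genes near the filter of 1 CPM have wide errors, and changes in them may have been missed.

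For the old against the plain set, 0 genes passed, and 1 with no filter, 5 with DESeq2, 4 without both old2 libraries and 0 to 6 without single libraries. For the old set against DLD-1, 155 became 415 with DESeq2 and 63 to 321 without single libraries.

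Same-numbered libraries did not all deviate together (residual correlation 0.607, 0.073 and 0.547 for old1, old2 and old3 over 12291 genes), so the numbers were not taken as pairs. With a replicate block the counts were 303 called genes, 9 genes between old and plain sets and 530 between the old set and DLD-1. In these residuals every untreated library nevertheless correlated best with the treated library of its own number. For old2 this was 0.073 against -0.037 and -0.058 with 2 h old1 and old3. In log2 CPM untreated old2 correlated least with 2 h old2 (r = 0.966, against 0.987 and 0.986 with 2 h old1 and old3).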

Other observations

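The 27 mitochondrially encoded genes tested had log2 fold changes with a median of 0.49, with 25 above 0. By edgeR 0 of these genes were called, against 0.513% of all genes tested. Their median difference from the untreated mean was 0.17, -0.17 and 0.94 in 2 h old1, old2 and old3, so the groups overlapped and 1 library, 2 h old3, held most of the difference.

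The levels of CYP1A1 before auxin differed between the sets of libraries, as did those of FOS, EGR1, EGR2 and IER3 given above. Untreated AID-NeonGreen-TPR cells held 1.68 to 3.77 CPM of CYP1A1 in the old set and 28.9 to 107 CPM in the plain set. The plain libraries hold no counts on mitochondrial genes, unlike the old ones, and the sets were not tested against each other at baseline.

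IER5 and IER5L, intronless paralogs, were placed differently by 2 h old2. IER5 stood at 18.9 CPM in this library, between 16.9 and 20.4 CPM in the others, while IER5L stood at 17.8 CPM, near its untreated range of 19.02 to 22.7 CPM.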
